A study of Mus musculus with 18 samples.

Results

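The comparison described here set mouse kidney 14 days after a single dose of folic acid against kidney 7 days after it, with 3 RNA-seq libraries at each time, which are 6 of the 18 libraries of the time course. Members were taken by their labelled day. Male Balb/c mice received folic acid at 250 mg/kg by intraperitoneal injection, dissolved in sodium bicarbonate, and RNA came from frozen kidney tissue at 1, 2, 3, 7 or 14 days. The 3 untreated libraries serve below as a reference level only. No group labelled as given the sodium bicarbonate solution alone was analysed here, so effects of the injection and of ageing between the sampling days cannot be told apart from the effect of folic acid. The labels do not say that the libraries came from separate animals, so p-values measure the spread between libraries, which may be partly technical.

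A high dose of folic acid injures the kidney tubule, chiefly the proximal tubule, the nephron segment that takes filtered salt, sugar, amino acids and protein back into the blood. Injured proximal tubule cells lose their transporters and metabolic enzymes and switch on genes such as Havcr1 (the injury marker KIM-1), Spp1 (osteopontin) and Lcn2. Afterwards the tubule partly repairs itself while inflammation and scarring can persist, and the study's title concerns markers of kidney fibrosis. The step from the first to the second week therefore bears on how injury genes, tubule genes, immune genes and matrix genes moved late in the course.

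The 6 libraries held 20.7 to 28.6 M reads on genes. Levels below are counts per M reads (CPM) after TMM scaling, and they compare 1 gene across libraries, not genes with each other. The labelled tissue carried its defining genes in every library, with Umod, the main protein of the thick ascending limb, at 650.1 to 739 CPM on day 7 and 782 to 1205 CPM on day 14. Genes of the mitochondrial genome took 63.5, 63.6 and 66.3% of reads on genes on day 7 and 69.6, 73.4 and 67.9% on day 14. Reads that fell in no gene made up 21.7 to 23.6% on day 7, and 18.7, 17.9 and 21.3% on day 14. Neither measure overlapped between the days. Each had an exact permutation p of 0.10 (two-sided), which is the smallest that 3 against 3 libraries allow, and an adjusted p of 0.35 over 14 measures.

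The third library labelled day 14 lay farther from untreated kidney than the other two. Its mean distance to the untreated libraries, a root-mean-square difference in log2 CPM over the genes tested, was 1.4, whereas replicates 1 and 2 of day 14 lay at 1.17 and 1.2 and the day 7 libraries at 1.32 to 1.46. Other distances did not set it apart. From the day 7 libraries replicate 3 lay at 1.12 on average, replicate 1 at 1.1 and replicate 2 at 1.21. Replicate 1 was its nearest library among the other day 7 and day 14 libraries, at 1.09, and lay at 1.04 from replicate 2, while replicates 2 and 3 were 1.21 apart. Each result is given with all 6 libraries and again without replicate 3. That library was set aside with its values known, so calls made without it do not carry the error rate their adjusted p states. The remaining pair is also assumed to vary as much as the other groups do.

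With all libraries, 3 of 16824 genes tested passed at an adjusted p under 0.05, or 0.0178% (edgeR quasi-likelihood test with Benjamini-Hochberg adjustment). Havcr1 and Plscr1 fell (2 genes, 0.0119%) and Dnase1 rose (1 gene, 0.00594%). At an unadjusted p under 0.05 there were 1588 genes (9.44%), of which 885 were higher on day 14 (5.26%) and 703 lower (4.18%). The libraries of the 2 days did not overlap, with day 14 higher, for 6.1% of genes, and with day 14 lower for 6.33%. The median log2 fold change over all genes was 0.01.

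Havcr1 (ENSMUSG00000040405) encodes a receptor that injured proximal tubule cells place on their surface. It stood at 148, 144 and 205 CPM in replicates 1, 2 and 3 of day 7 and at 32, 25.2 and 42.6 CPM in those of day 14. The 2 days did not overlap, and every library of day 14 lay above the untreated range of 10.4 to 23.3 CPM. The fall was 4.98-fold (log2 fold change -2.32 ± 0.33 SE, edgeR adjusted p = 0.0215), and 5.79-fold without day 14 replicate 3 (adjusted p = 0.00577).

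Plscr1 (ENSMUSG00000032369), phospholipid scramblase 1, an interferon-inducible gene, measured 32.3, 24.3 and 42.1 CPM on day 7 and 10.2, 7.34 and 9.05 CPM on day 14. All 3 day 14 libraries, replicate 3 included, sat near the untreated 7.61 to 11.2 CPM. The log2 fold change was -1.89 ± 0.29 (SE), a 3.71-fold fall, with an edgeR adjusted p of 0.0269. It was -1.9 without replicate 3 (adjusted p = 0.0176). Plscr1 is not in the list of 32 interferon response genes used here. Of that list 2 were higher and 1 lower at an unadjusted p under 0.05, beside 5.26% and 4.18% of all genes tested. The list's median log2 fold change was -0.27, and no member passed in either fit.

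Dnase1 (ENSMUSG00000005980), a secreted nuclease made by the kidney tubule, went from 28.1, 47.9 and 22.3 CPM to 236, 279 and 106 CPM. Replicate 3 was the lowest of day 14 yet above every day 7 library, and the untreated libraries held 298 to 426 CPM. The rise was 6.32-fold with all libraries (log2 fold change 2.66 ± 0.43 SE, edgeR adjusted p = 0.0339) and 7.87-fold without replicate 3 (adjusted p = 0.00389). The plot of 12 genes by library shows these 3 genes beside others described below.

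These calls were fragile to the choice of libraries. All 3 genes lost significance when day 7 replicate 3, day 14 replicate 1 or day 14 replicate 2 was left out, and Plscr1 and Dnase1 also without day 7 replicate 1. For Havcr1 the adjusted p values were 0.0646 without day 14 replicate 1 and 0.172 without day 14 replicate 2. Dnase1 also lost it with scaling by library totals (adjusted p = 0.0962). A fit on the 6 libraries of days 7 and 14 alone called 0 genes, with 1323 at an unadjusted p under 0.05.

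**Figure D1:**
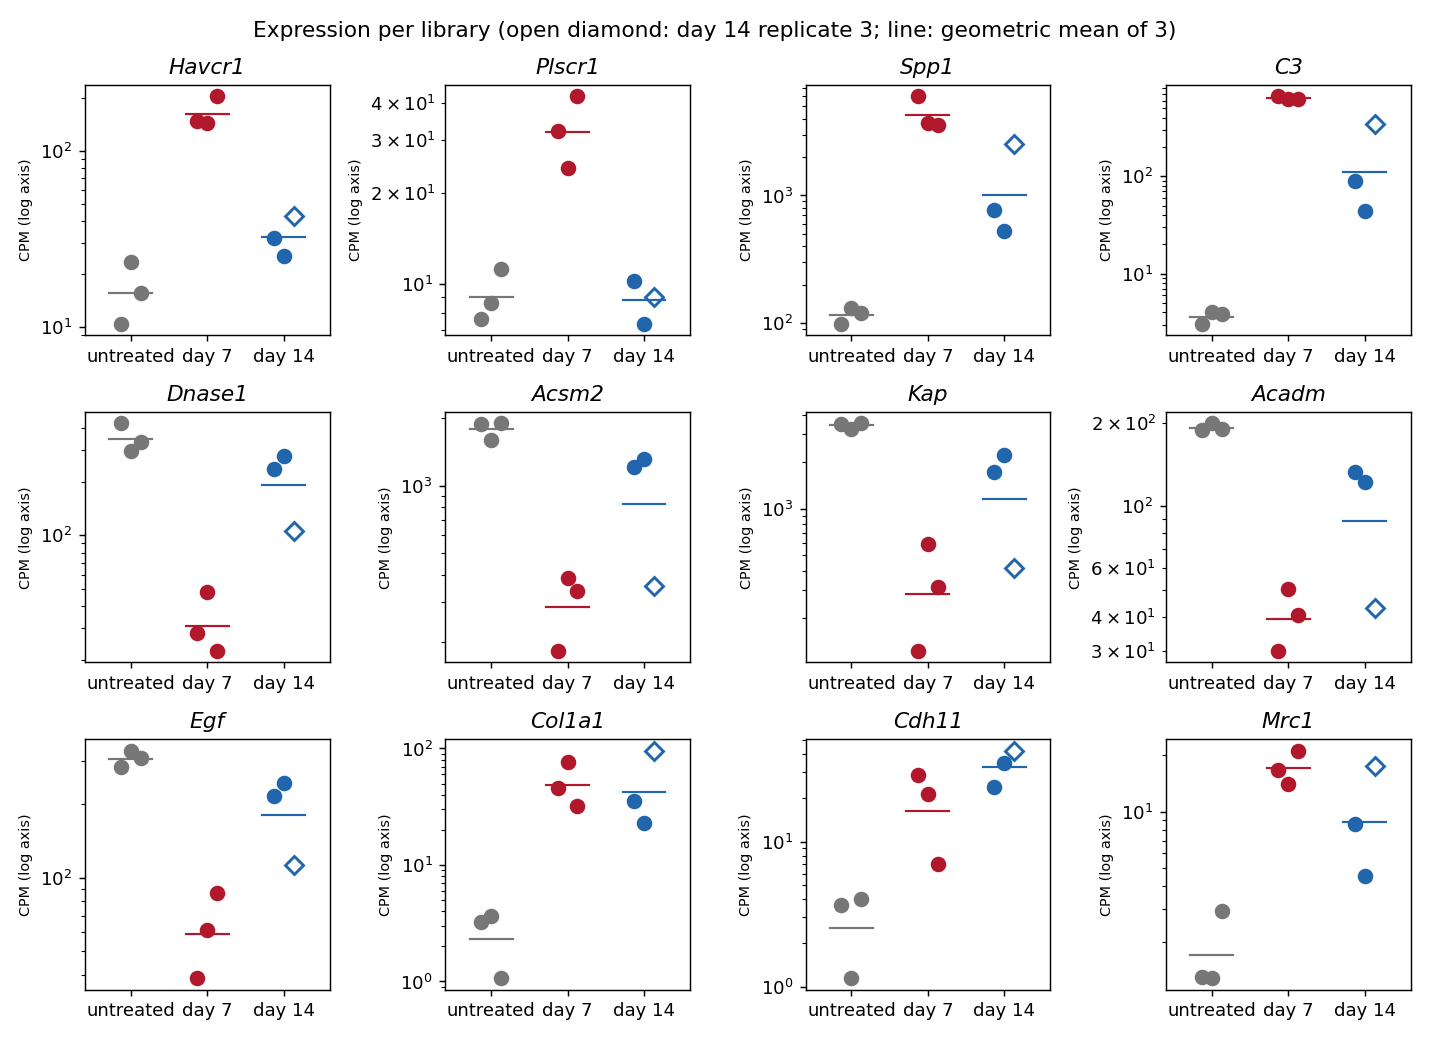
CPM (log axis) of 12 genes in each untreated, day 7 and day 14 library; the open diamond is day 14 replicate 3 and the line the geometric mean of 3. For Havcr1 and Plscr1 all 3 day 14 libraries lie below day 7, whereas for Acsm2, Kap and Acadm the diamond sits among or close to the day 7 libraries.

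The 250 bases upstream of the start of the 3 genes that passed with all libraries are shown because these are the only genes that passed in that fit. All are on the plus strand of build GRCm38.p6, from RefSeq, written 5′ to 3′. Havcr1 has 3 annotated starts and Dnase1 has 2, and the window of the first listed is printed. Capitals mark a match, on either strand, to 1 of 7 motifs searched. These were CAAAGTCCA (HNF4), TTCNNNGAA (STAT), TGANTCA (AP-1), TATAAA, and short core forms of the HNF1, NF-kB and interferon response elements.
Havcr1, chr11:46739973-46740222: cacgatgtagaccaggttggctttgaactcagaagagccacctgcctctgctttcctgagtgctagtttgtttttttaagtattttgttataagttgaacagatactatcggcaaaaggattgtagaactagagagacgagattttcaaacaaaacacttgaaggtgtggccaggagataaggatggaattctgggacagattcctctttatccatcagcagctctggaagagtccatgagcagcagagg
Plscr1, chr9:92249944-92250193: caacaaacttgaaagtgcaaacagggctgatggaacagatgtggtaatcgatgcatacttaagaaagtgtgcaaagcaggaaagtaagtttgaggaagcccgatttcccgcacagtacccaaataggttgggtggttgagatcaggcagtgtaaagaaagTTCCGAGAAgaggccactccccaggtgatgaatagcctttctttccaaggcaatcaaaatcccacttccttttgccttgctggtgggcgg
Dnase1, chr16:4036786-4037035: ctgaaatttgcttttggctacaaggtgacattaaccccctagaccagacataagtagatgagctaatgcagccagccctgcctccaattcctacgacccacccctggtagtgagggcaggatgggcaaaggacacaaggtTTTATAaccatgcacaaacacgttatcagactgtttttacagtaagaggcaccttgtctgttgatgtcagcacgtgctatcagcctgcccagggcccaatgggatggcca
The Plscr1 window holds a STAT-type match starting 90 bases before the gene's start, and 7.02% of 32851 windows of this length hold one. The Dnase1 window holds TATAAA on the minus strand, 110 bases before the start, and 12.4% of windows hold that motif. The Havcr1 window holds no match to any of them. Such matches describe the sequence and carry no statement on binding.

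Without day 14 replicate 3, 56 of 17682 genes passed (0.317%), 46 of them higher (0.26%) and 10 lower (0.0566%), and 1830 had an unadjusted p under 0.05 (10.3%, or 6.11% higher and 4.24% lower). In this set of 5 libraries 13.5% of genes did not overlap with day 14 higher and 13% with day 14 lower, and single-gene statements of no overlap stand against those shares. The 3 genes called with all libraries were among the 56. The genes that rose include 9 from the list of proximal tubule enzymes, 5 transport genes of the proximal tubule and 2 genes of fatty acid oxidation. Those that fell include the injury genes Spp1, Havcr1, Sox9 and Cp, the complement gene C3 and the monocyte receptor Cd14. The split depends on scaling: 82.1% of the calls were higher with TMM, but scaling by library totals alone called 9 genes, 3 higher and 6 lower, and moved the median log2 fold change of all genes by -0.43. The count also hung on single libraries, at 12 once day 7 replicate 1 was left out too, 19 without day 7 replicate 3, 30 without day 14 replicate 2 and 119 without day 14 replicate 1. On the 5 libraries of days 7 and 14 alone, 0 genes passed and 1842 had an unadjusted p under 0.05.

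The position of the omitted library was read on log2(CPM + 0.5) for the 56 genes. Of the 46 that rose, replicate 3 lay within the day 7 range for 23, between day 7 and the other pair for 18, beyond day 7 on the far side for 4, and level with the pair for 1. Of the 10 that fell, it lay within the day 7 range for 3, between for 6 and level for 1, which was Plscr1. On the way from the day 7 mean to the mean of the pair it had covered a median of 14.2% for genes that rose and 29.1% for genes that fell. These 56 genes were chosen with that library set aside, so its distance from the pair is a description and was not tested.

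**Figure D2:**
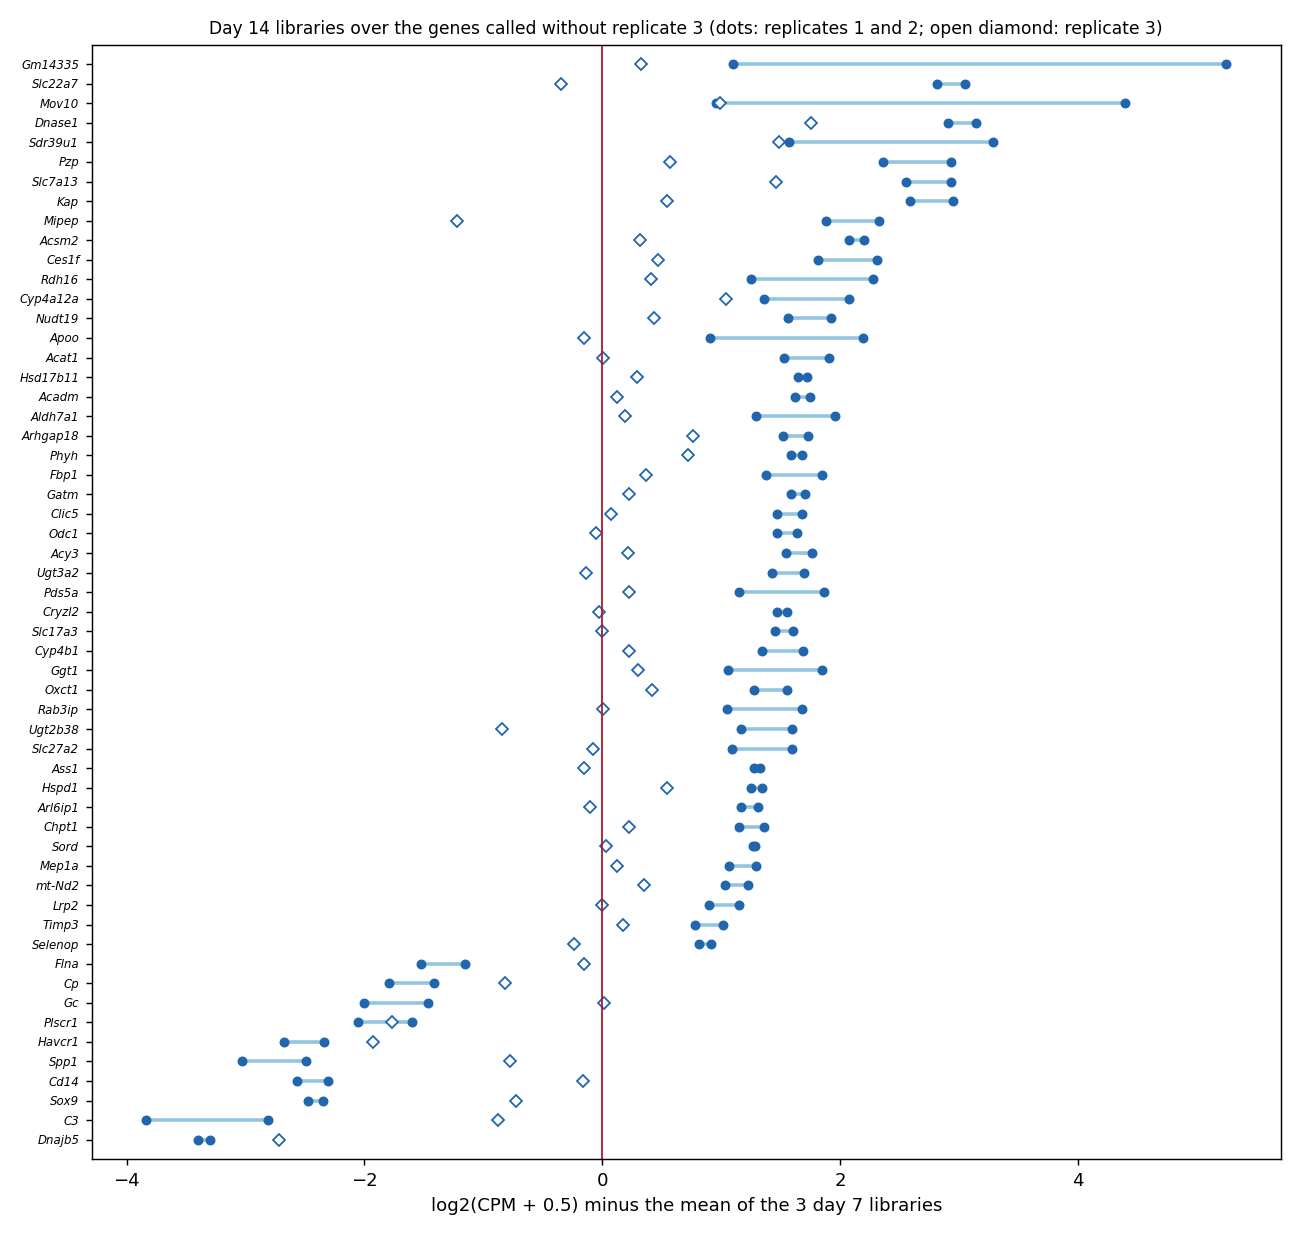
Day 14 libraries for the 56 genes called without replicate 3, as log2(CPM + 0.5) minus the mean of the 3 day 7 libraries (red line at 0); dots joined by a bar are replicates 1 and 2, the open diamond replicate 3. Most diamonds lie near the day 7 line, with a median of 14.2% of the way for genes that rose, while Plscr1 falls between the dots.

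The median tubular injury gene was lower on day 14 than on day 7. Of 35 genes in this list, 13 were lower and 1 higher at an unadjusted p under 0.05 with all libraries, and 17 lower and 0 higher without replicate 3. The median log2 fold change was -0.91 and -1.21, beside 0.01 and -0.05 over all genes tested. Havcr1 passed in both fits, and Spp1, Cp and Sox9 passed without replicate 3. Of all genes tested, 5.26% were higher and 4.18% lower at an unadjusted p under 0.05. Without replicate 3 these shares were 6.11% and 4.24%. The counts for this list and the lists below stand against them.

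Spp1, a secreted phosphoprotein made by injured tubules, measured 5989, 3725 and 3575 CPM on day 7 and 766, 526 and 2514 CPM on day 14. Replicate 3 held several times the level of its companions but stayed below day 7, and all 6 libraries exceeded the untreated 98.4 to 131 CPM. Without replicate 3 Spp1 fell 6.85-fold (log2 fold change -2.78 ± 0.32 SE, edgeR adjusted p = 0.00078). With it the log2 fold change was -1.8 (adjusted p = 0.243). Cp, the ferroxidase ceruloplasmin, was at 266, 183 and 189.6 CPM and then at 60.2, 78.1 and 119 CPM. It fell 3.07-fold without replicate 3 (adjusted p = 0.0221), against a log2 fold change of -1.31 with it (adjusted p = 0.19). Sox9, a transcription factor of repairing tubule cells whose level kept it outside the naming rule and which was chosen after its values were seen, went from 12.6, 5.24 and 7.18 CPM to 1, 1.14 and 4.52 CPM (adjusted p = 0.0498 without replicate 3, 0.291 with it).

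Other injury genes did not pass in either fit. Lcn2, which encodes an iron-carrier-binding protein, stood at 102, 55.5 and 52.1 CPM and then at 12.8, 9.0 and 65 CPM, so replicate 3 lay inside the day 7 range while the other 2 did not (adjusted p = 0.631, and 0.149 without it). Krt20, a keratin of stressed epithelium, showed the same layout at 9.57, 4.45 and 5.2 CPM and 0.39, 0.81 and 7.91 CPM (adjusted p = 0.841 and 0.226). Clu, a secreted chaperone, was at 259, 167 and 209 CPM and 95.4, 94.6 and 137 CPM, with no overlap between the days (adjusted p = 0.284 and 0.14). Vcam1, an adhesion molecule, was at 83.3, 145 and 75.6 CPM and 42.5, 56.4 and 77.1 CPM (adjusted p = 0.542 and 0.396).

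The median proximal tubule transport gene was higher on day 14. Of 38 tested, 19 were higher and 1 lower at an unadjusted p under 0.05 with all libraries, and 24 higher and 0 lower without replicate 3. The median log2 fold change was 0.74 with it and 1.02 without it. No member passed the adjusted threshold with all libraries, and 5 rose without replicate 3: Lrp2, Slc7a13, Slc17a3, Slc27a2 and Slc22a7. Because the RNA came from whole tissue, more proximal tubule cells and more RNA of these genes per cell cannot be told apart. The higher mitochondrial share and the smaller share of reads outside genes on day 14, given above, moved with this group and their part in it was not tested. Without the mitochondrial genes the fit that omits replicate 3 called 51 genes, all 51 of them among the 56.

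Slc7a13, an amino acid carrier of the late proximal tubule, was at 14.9, 54 and 32.2 CPM on day 7 and at 177, 229.9 and 82.7 CPM on day 14, with no overlap. It rose 6.05-fold without replicate 3 (log2 fold change 2.6 ± 0.43 SE, edgeR adjusted p = 0.0104), and its adjusted p with all libraries was 0.11. Lrp2 encodes megalin, the receptor that recovers filtered protein, and went from 475, 564 and 678 CPM to 1058, 1258 and 565 CPM. Replicate 3 lay inside the day 7 range and the other pair at about 2.03 times it (adjusted p = 0.0176, or 0.291 with all libraries). Slc17a3, an organic anion transporter, showed 46.8, 59.1 and 45.4 CPM and then 138, 153 and 49.9 CPM, again with replicate 3 at the day 7 level (adjusted p = 0.00389, or 0.243 with all).

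Slc27a2, a fatty acid transporter and acyl-CoA synthetase, was at 425, 419.5 and 558 CPM and 989, 1398 and 440 CPM (adjusted p = 0.00872 without replicate 3, 0.263 with it). Slc22a7, the organic anion transporter OAT2, chosen after its values were seen because it lies below the naming level, was at 0.3, 0.68 and 0.14 CPM and 6.46, 5.43 and 0.16 CPM (adjusted p = 0.0309 and 0.267). Replicate 3 had as little of it as day 7 did. The sodium-phosphate carrier Slc34a1 did not pass, at 142, 247 and 243 CPM and 439.7, 526 and 289 CPM (adjusted p = 0.071 without replicate 3, 0.243 with it). Nor did the glucose carrier Slc5a2, at 5.85, 5.81 and 7.39 CPM and 15.8, 19.5 and 12.8 CPM (adjusted p = 0.116 and 0.243), although neither gene overlapped between the days.

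The median gene of the proximal tubule enzyme list was likewise higher on day 14. That list also holds Kap, which is not an enzyme. Of 44 tested, 23 were higher and 0 lower at an unadjusted p under 0.05 with all libraries, and 29 higher and 0 lower without replicate 3. The list median was 0.88 and 1.11. None passed the adjusted threshold with all libraries, and 9 rose without replicate 3: Kap, Acsm2, Fbp1, Gatm, Cyp4b1, Ggt1, Ugt2b38, Ass1 and Mep1a.

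Kap, the kidney androgen-regulated protein, went from 122, 592 and 314 CPM to 1706, 2191 and 413 CPM, against 3253 to 3508 CPM in untreated kidney. Replicates 1 and 2 lay well above day 7 and replicate 3 within it. The rise without replicate 3 was 5.7-fold (log2 fold change 2.51 ± 0.42 SE, edgeR adjusted p = 0.0104), and the adjusted p with it was 0.243. Acsm2, a mitochondrial medium-chain acyl-CoA synthetase, measured 182, 385 and 337 CPM and then 1210, 1318 and 357 CPM. It rose 4.2-fold without replicate 3 (adjusted p = 0.00078, or 0.133 with all libraries).

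Fbp1, an enzyme of glucose synthesis, was at 37.5, 60.4 and 49.7 CPM and 126, 175 and 62.5 CPM (adjusted p = 0.0402 without replicate 3, 0.243 with it). Gatm, the first enzyme of creatine synthesis, was at 60, 115 and 97.8 CPM and 288, 265 and 103 CPM (adjusted p = 0.0498 and 0.267). Ass1, which serves the kidney's arginine synthesis, was at 162, 190.4 and 211 CPM and 453, 469 and 167 CPM (adjusted p = 0.0105 and 0.291). For all 3 the pair of replicates 1 and 2 stood above every day 7 library, and replicate 3 sat near the day 7 level. Ass1, Mep1a and Ggt1 were chosen after their values were seen. Among the brush-border peptidases, Mep1a had 372, 436 and 194 CPM on day 14 against 149, 195 and 193 CPM (adjusted p = 0.0183 and 0.258), and Ggt1 had 74, 129 and 43.6 CPM against 28.1, 35 and 45.1 CPM (adjusted p = 0.0498 and 0.262).

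Fah, the last enzyme of tyrosine breakdown, differed from this layout and was chosen after its values were seen. It held 23, 34 and 28.3 CPM on day 7 and 81, 60.7 and 83.5 CPM on day 14, with replicate 3 the highest of the 3 libraries and the untreated range at 61.3 to 102 CPM. Its log2 fold change was 1.4 ± 0.29 (SE) with all libraries, and it did not pass (edgeR adjusted p = 0.133, and 0.0854 without replicate 3).

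Cyp4a12a, Ces1f, Rdh16 and Pzp, which are in no list used here, also rose without replicate 3. Cyp4a12a, an arachidonic acid hydroxylase chosen after its values were seen, was at 21, 28 and 21.4 CPM and 60.4, 99.8 and 48.5 CPM, with replicate 3 also above day 7 (adjusted p = 0.00952, or 0.0801 with all libraries). The carboxylesterase gene Ces1f was at 17.5, 39 and 30.2 CPM and 97.5, 138 and 38.2 CPM (adjusted p = 0.0176 and 0.243). Rdh16, a retinol dehydrogenase family member, was at 15.5, 19.6 and 23.2 CPM and 46.4, 94.7 and 25.7 CPM (adjusted p = 0.0243 and 0.243). The Cyp4a, Ces1 and Ugt2b families hold near-identical copies. Reads aligned to more than 1 place went to an HTSeq tally row, which was dropped, and were not counted to genes. That row held 25.3, 22.9 and 23.8% of reads on day 7 and 21.8, 18.4 and 26.3% on day 14. The values of Cyp4a12a, Ces1f and Ugt2b38 are therefore uncertain. Pzp, a protease-trapping macroglobulin, was at 12.2, 11 and 6.49 CPM and 51.1, 76.4 and 14.4 CPM, and rose 6.45-fold without replicate 3 (adjusted p = 0.00195, or 0.117 with it).

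Fatty acid oxidation is the main energy source of the proximal tubule. Of 40 genes tested, 16 were higher and 0 lower at an unadjusted p under 0.05, and of 41 without replicate 3, 17 were higher and 1 lower. The median was 0.51 and 0.57. Acadm, the medium-chain acyl-CoA dehydrogenase, went from 30, 50.3 and 40.5 CPM to 134, 122 and 43 CPM, and rose 3.18-fold without replicate 3 (edgeR adjusted p = 0.00565, or 0.243 with it). Acat1, which makes and breaks acetoacetyl-CoA, went from 62.7, 92.6 and 50 CPM to 192, 249 and 66.4 CPM (adjusted p = 0.00952 and 0.243). Replicate 3 lay inside the day 7 range for both.

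Outside that list, Oxct1, Phyh and Hspd1 were chosen after their values were seen. Oxct1 starts the use of ketone bodies and was at 111, 151 and 137 CPM and 319.5, 387 and 176 CPM, with no overlap (adjusted p = 0.0058 without replicate 3, 0.19 with it). Phyh, a peroxisomal enzyme of phytanic acid breakdown, was at 34.6, 54.5 and 53.6 CPM and 141, 150.2 and 76.9 CPM (adjusted p = 0.00577 and 0.105). Replicates 1 and 2 of Phyh lay within the untreated 128 to 160 CPM. The mitochondrial chaperone Hspd1 was at 40.5, 57.6 and 43.6 CPM and 112, 119 and 68.4 CPM (adjusted p = 0.0176 and 0.202). Catalase, Cat, which removes hydrogen peroxide in peroxisomes, did not pass at 209, 203 and 192 CPM and 398, 444 and 277 CPM (adjusted p = 0.063 and 0.243).

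Nuclear genes of oxidative phosphorylation had a median of 0.45 and 0.58. Of 46 tested, 8 were higher and 0 lower at an unadjusted p under 0.05, or 16 and 0 without replicate 3, and none passed adjustment. Among the most abundant, the ATP synthase subunit Atp5b was at 342, 389 and 365 CPM and 650.2, 687 and 385 CPM (edgeR adjusted p = 0.14 without replicate 3). Protein genes of the mitochondrial genome had a median of 0.64 over 12 tested, and of 0.81 over 13 without replicate 3. There mt-Nd2, a subunit of complex I, rose from 1207, 867 and 997 CPM to 2070, 2372 and 1296 CPM (adjusted p = 0.0441, or 0.243 with replicate 3).

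Median differences were smaller for later nephron segments. Genes of the loop of Henle and distal tubule had a median of 0.48 and 0.53 over 28 genes, with 5 higher and 0 lower at an unadjusted p under 0.05, or 6 and 0 without replicate 3. None passed adjustment. The list's summed CPM did not overlap, at 2773 to 3323 on day 7 and 3889 to 4727 on day 14. The exact permutation p was 0.10 and the adjusted p 0.35. The proximal tubule transport sum did overlap, with replicate 3 at 3414 and day 7 at 3025 to 3700. Per-library medians over untreated for the loop and distal list were -0.74, -0.54 and -0.31 on day 7. On day 14 they were -0.02, 0.15 and -0.12, so replicate 3 stood with day 14 here. Egf, the growth factor made in the distal tubule, was at 38.9, 61.1 and 86.3 CPM and 214, 242 and 112 CPM, with no overlap, below the untreated 282 to 329 CPM (edgeR adjusted p = 0.243, and 0.0714 without replicate 3). Umod was at 739, 650.1 and 676 CPM and 1205, 782 and 798 CPM (adjusted p = 0.736 and 0.631). Kl encodes klotho, a co-receptor for the phosphate hormone FGF23, and was at 72.5, 158 and 157 CPM and 229.9, 271 and 146 CPM (adjusted p = 0.426 and 0.202). Slc12a1, the furosemide-sensitive salt carrier, was at 224, 346 and 304 CPM and 581, 463 and 381 CPM (adjusted p = 0.638 and 0.562).

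Collecting duct genes had a median of 0.22 and 0.33 over 24, podocyte genes 0.14 and -0.10 over 21, and endothelial genes 0.32 and 0.28 over 24. Clic5, a chloride intracellular channel protein of podocyte foot processes, alone passed among these 3 lists and only without replicate 3. It was at 33.6, 32.2 and 32.4 CPM and 106, 91.4 and 34.4 CPM (edgeR adjusted p = 0.00952, or 0.243 with all libraries). The summed CPM of the endothelial list was 207 to 286 on day 7 and 324 to 390.4 on day 14 without overlap (exact permutation p = 0.10, adjusted p = 0.35, n = 3 and 3).

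**Figure D3:**
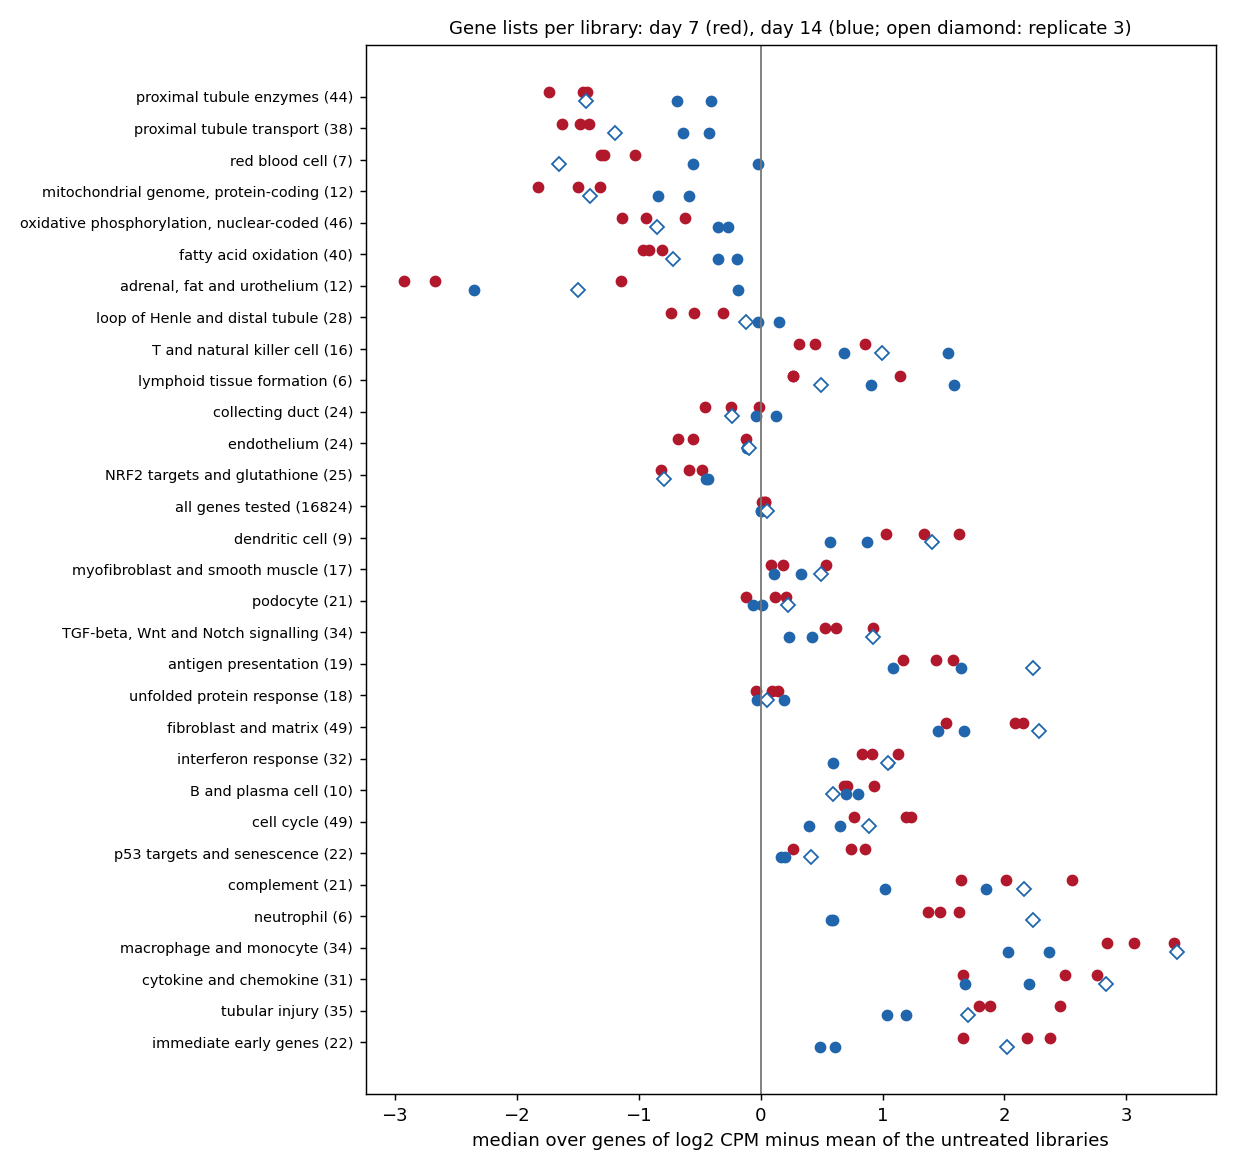
Median over each gene list (number tested in parentheses) of log2 CPM minus the untreated mean, in the 3 day 7 libraries (red) and the 3 day 14 libraries (blue, open diamond for replicate 3). For proximal tubule enzymes the day 14 values were -0.69, -0.41 and -1.43 and the day 7 values -1.73, -1.42 and -1.45, so the diamond lies with day 7.

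Macrophage genes showed a similar layout of the libraries, with replicate 3 at about the day 7 level. The macrophage and monocyte list had per-library medians over untreated of 3.06, 3.39 and 2.84 on day 7 and 2.36, 2.03 and 3.41 on day 14. Its median log2 fold change between the days was -0.44 over 34 genes, and -0.73 over 35 without replicate 3. At an unadjusted p under 0.05, 1 gene was higher and 2 were lower, beside 5.26% and 4.18% of all genes tested, so with all libraries these counts are near the background. Without replicate 3 they were 1 and 6, beside 6.11% and 4.24%. The list's summed CPM was 507, 658 and 413 on day 7, and 355, 291 and 619.5 on day 14 (exact permutation p = 0.40, adjusted p = 0.622).

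Cd14, the lipopolysaccharide co-receptor, was at 16.4, 39.2 and 11.7 CPM and 2.91, 3.57 and 17.4 CPM. It fell 6.91-fold without replicate 3 (edgeR adjusted p = 0.0456), which itself lay inside the day 7 range (adjusted p = 0.438 with it). Mrc1, the mannose receptor of macrophages that the study's title names, was at 16.6, 14.1 and 21.2 CPM and 8.59, 4.5 and 17.6 CPM, above the untreated 1.28 to 2.94 CPM, and did not pass (adjusted p = 0.738, and 0.369 without replicate 3). Ccl2, a monocyte attractant, was at 15.9, 15.1 and 25.5 CPM and 7.76, 4.7 and 8.52 CPM, with no overlap (adjusted p = 0.364 and 0.332). The antigen-presentation gene Cd74 was at 258, 572 and 351 CPM and 237, 239.6 and 426 CPM (adjusted p = 0.856 and 0.608).

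C3, the central complement component, was the member with the most marked change of its list. It measured 665, 628 and 619 CPM on day 7 and 90.4, 44.1 and 347 CPM on day 14, against 3.04 to 4.02 CPM in untreated kidney. Without replicate 3 it fell 9.46-fold (log2 fold change -3.24 ± 0.39 SE, edgeR adjusted p = 0.000814), and the log2 fold change with it was -1.99 (adjusted p = 0.243). The complement list had a median of -0.29 and -0.59 over 21 genes, and the cytokine and chemokine list -0.53 over 31 and -0.91 over 32. Of the cytokine list 6 were lower and 0 higher at an unadjusted p under 0.05, or 8 and 0 without replicate 3.

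T and natural killer cell genes had a median of 0.31 over 16 tested, B and plasma cell genes -0.10 over 10, and neutrophil genes 0.11 over 6. Without replicate 3 these were 0.48, -0.37 and -0.72. No member of these lists passed in either fit. Their summed CPM was at most 24.8 for the T cell and neutrophil lists. The neutrophil sum was 13.5, 15.4 and 12.6 on day 7 and 11.1, 10 and 18.3 on day 14. Its members Elane and Ly6g were at or near 0 in every library. Cxcr2 held 4.81 to 7.2 CPM in the 6 libraries and Csf3r 2.35 to 6.77 CPM. Fpr2 was at 0.23, 0.46 and 0.56 CPM and then at 1, 1.22 and 2.4 CPM, with no overlap. The red blood cell list, at 6.02 to 11.1 summed CPM on day 7, was at 19.8, 25.5 and 7.38 on day 14. Its untreated range was 17.8 to 19.6. Slc4a1 held 2.04, 4.74 and 5.65 CPM of that sum on day 7, and 11.4, 18.4 and 3.1 CPM on day 14. That gene is also on the collecting duct list. The globin gene Hbb-bs was at 1.28, 0.64 and 0.14 CPM, and then at 2.43, 0.28 and 0.29 CPM.

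Matrix genes did not separate the days. The fibroblast and matrix list had a median of -0.01 over 49 genes with all libraries and -0.33 over 50 without replicate 3. At an unadjusted p under 0.05, 1 gene was higher and 0 lower, beside 5.26% and 4.18% of all genes tested. Without replicate 3 the counts were 1 and 3, beside 6.11% and 4.24%, so they are near the background. The list's summed CPM was 1610.3, 1703 and 1243 on day 7 and 1524, 1433 and 2017 on day 14 (exact permutation p = 0.60, adjusted p = 0.817). Timp3, which tubules also express, held 244, 292 and 268 CPM of that sum on day 7. On day 14 it held 459.8, 541 and 301 CPM. In untreated kidney it held 728 to 874 CPM of a summed 1116 to 1231 CPM. A sum without Timp3 was not tested.

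Cdh11, a cadherin of fibroblasts and the other gene of the study's title, was at 28.9, 21.2 and 7.04 CPM on day 7 and 23.9, 34.6 and 42.3 CPM on day 14. Every day 14 library lay above the lowest day 7 library and the days overlapped, with an untreated range of 1.14 to 4.01 CPM. The log2 fold change was 0.82 ± 0.60 (SE, edgeR adjusted p = 0.762), and 0.62 ± 0.68 without replicate 3 (adjusted p = 0.85). A p that misses the threshold does not show that Cdh11 stayed level.

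Col1a1, the main chain of type I collagen, was at 46.2, 76.8 and 32 CPM and 35.1, 23 and 95.8 CPM, with replicate 3 the highest of the 6 libraries. Its log2 fold change was -0.01 with all libraries and -0.83 without replicate 3 (adjusted p = 1 and 0.71). Col3a1 was at 84.2, 95.6 and 41 CPM and 92.8, 44.5 and 131 CPM (log2 fold change 0.28 and -0.10). Fibronectin, Fn1, was at 99.7, 118 and 65.6 CPM and 84, 69.1 and 119 CPM (log2 fold change -0.06 and -0.30). The intermediate filament gene Vim was at 20.3, 16.6 and 10.5 CPM and 10.4, 14.2 and 28.4 CPM (log2 fold change 0.16 and -0.36), so Vim and Col3a1 changed sign when replicate 3 was left out.

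Acta2, smooth muscle actin and a myofibroblast marker, was at 10.2, 3.88 and 7.29 CPM and 2.43, 5.72 and 8.11 CPM (edgeR adjusted p = 0.947 and 0.845 without replicate 3). Timp3, a metalloproteinase inhibitor of the matrix that tubules also express, rose without replicate 3 from 244, 292 and 268 CPM to 459.8, 541 and 301 CPM (adjusted p = 0.037, or 0.267 with all libraries). It was the only member of the matrix list to pass in that fit. Flna, an actin cross-linker, fell from 61, 51.4 and 73.8 CPM to 27.3, 21 and 55.3 CPM (adjusted p = 0.0442, or 0.364 with all). Pltp, a lipid transfer protein, was at 2.2, 5.77 and 1.8 CPM and 1.73, 1.46 and 3.06 CPM and did not pass (adjusted p = 0.889 with all, 0.782 without replicate 3).

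**Figure D4:**
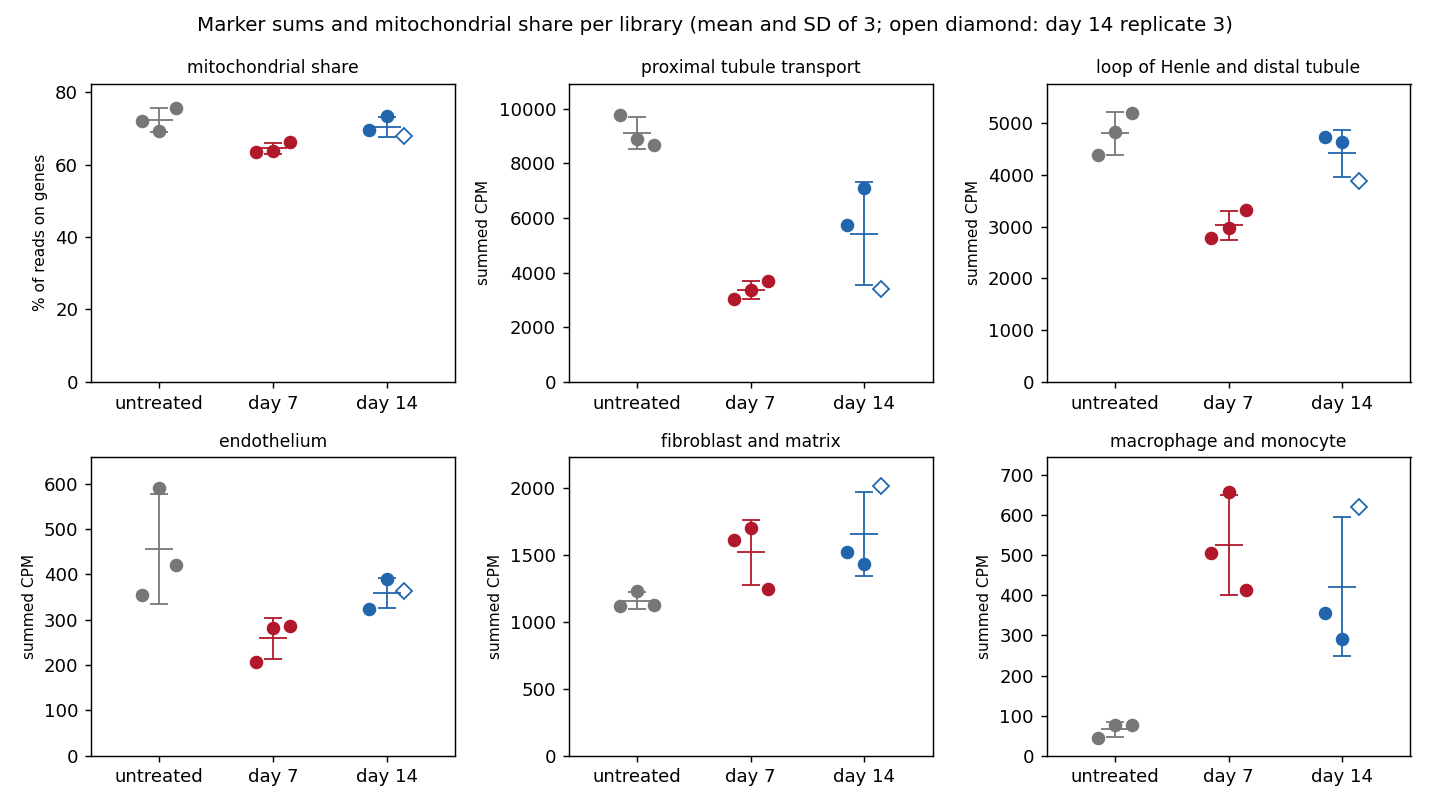
Mitochondrial share and summed CPM of 5 marker lists in each untreated, day 7 and day 14 library, with mean and SD of 3 and an open diamond for day 14 replicate 3. The diamond is the highest day 14 value for matrix (2017) and macrophage genes (619.5) and the lowest for proximal tubule transport (3414). The matrix sum includes Timp3, which tubules also express, at 459.8, 541 and 301 CPM on day 14.

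Proliferation genes had a median of -0.32 and -0.44 over 49 genes, with 7 lower and 0 higher at an unadjusted p under 0.05, or 6 and 0 without replicate 3. Mki67, the proliferation antigen, was at 13.9, 13.4 and 12.8 CPM and 11.1, 7.42 and 13.6 CPM (edgeR adjusted p = 0.898 and 0.771). Immediate early genes, which respond within minutes to stress or growth signals, had a median of -0.53 and -1.42 over 22, with 4 and 8 lower and 0 higher. Their per-library medians over untreated were 2.37, 2.19 and 1.66 on day 7 and 0.49, 0.61 and 2.02 on day 14, so replicate 3 stood with day 7. No member of either list passed.

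Other genes that passed without replicate 3 have varied roles, and of those below Odc1 and Selenop were chosen after their values were seen. Gc, the vitamin D-binding protein, fell from 42.3, 29.3 and 40.3 CPM to 8.8, 13 and 37.1 CPM (edgeR adjusted p = 0.0497, or 0.503 with all libraries). Odc1, the first enzyme of polyamine synthesis, rose from 33.9, 29.6 and 33.4 CPM to 101, 90 and 31.1 CPM (adjusted p = 0.0104 and 0.257). Selenop, a selenium transport protein, rose from 804, 878 and 724 CPM to 1404, 1505 and 678 CPM (adjusted p = 0.037 and 0.438). The mitochondrial peptidase gene Mipep was at 10.9, 6.02 and 6.87 CPM and 40.5, 29.6 and 3.02 CPM, with replicate 3 below every day 7 library (adjusted p = 0.0132 and 0.35).

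Several calls leaned on 1 library. Mov10, which encodes an RNA helicase, was at 2.7, 7.16 and 5.07 CPM on day 7 and 9.5, 108 and 9.7 CPM on day 14, so replicate 2 alone carried most of its 11.8-fold rise (adjusted p = 0.0176 without replicate 3, 0.202 with it). Its log2 fold change was 3.56 without replicate 3 and 0.94 once day 14 replicate 2 was also left out. Sdr39u1, a short-chain dehydrogenase family member, was at 6.77, 5.59 and 6.31 CPM and 19.4, 65.1 and 18.3 CPM (adjusted p = 0.00952 and 0.0801), and the same omission moved its log2 fold change from 2.76 to 1.64. Dnajb5, a co-chaperone, was at 7.14, 51.2 and 4.02 CPM and 0.65, 0.73 and 1.35 CPM, with replicate 2 of day 7 far above the rest (adjusted p = 0.0309 and 0.0614). Without that library its log2 fold change went from -4.9 to -3.01 (adjusted p = 0.0907). A gene exceeding 50 CPM in 1 library and 5 times its next highest value was found 10, 4 and 4 times in day 7 replicates 1, 2 and 3 and 4, 26 and 18 times in those of day 14.

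Levels in replicates 1 and 2 of day 14 lay between day 7 and untreated for most of the 56 genes. The position of replicate 3 is given above. Of the 46 that rose, all 3 day 7 libraries lay outside the untreated range for 42. Replicates 1 and 2 of day 14 were both still outside it, on the side of day 7, for 26, one of the pair was within it for 8, and both were within it for 5. The other 7 had another arrangement. Both replicates lay above the untreated range for Mipep (10.8 to 17.5 CPM), Mov10 (6.58 to 8.59 CPM), Sdr39u1 (10.3 to 18 CPM), Pds5a and Gm14335. For Aldh7a1 and Apoo they lay on either side of it. Of the 10 that fell, all day 7 libraries were above the untreated range for 10, and both day 14 replicates were still above it for 8. These counts are a description, since the genes were chosen by the same libraries.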

How the data were processed

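Per the labels, libraries were made from 10 ng of total kidney RNA by single primer isothermal amplification. Per the submitters' processing notes, the authors trimmed reads with cutadapt, aligned them with TopHat2 2.07 to mouse build NCBIM37 and counted them per gene with HTSeq. The strand setting and annotation release are not given in the sources used here, so genes overlapping another gene are uncertain. The deposited raw counts, in whole reads per gene, cover 37991 identifiers and were used throughout. The 5 HTSeq tally rows were dropped, and the authors' normalized tables were not used. Symbols came from GENCODE M21 and were found for 32919 identifiers.

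Counts were fitted with edgeR 4.0.16 (R 4.3.3): TMM scaling, filterByExpr over 6 groups, group as the only term, all 18 libraries (17 without day 14 replicate 3), a two-sided quasi-likelihood test and Benjamini-Hochberg adjustment. SE is the log2 fold change divided by the square root of F. Fold changes are fitted ones. CPM come from the fit of 18 libraries. Marker sums were compared by exact permutation.

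The 30 gene lists hold 817 genes, of which 811 were found. Members and lists were chosen with earlier results of these data known. Named genes were the largest changes among those passing in either fit whose groups did not overlap and whose higher mean reached 10 CPM, up to 4 passing members of each list or the 3 most abundant, and a fixed panel of 24. For length, not all of them are printed. Other genes with values in the text were chosen after their values were seen. The panel gene Fgb had reads in 1 of the 6 libraries only. Alternatives covered scaling, filtering, DESeq2 1.42.0, limma-voom 3.58.1, a replicate block, fewer groups and left-out libraries. Same-numbered day 7 and day 14 libraries correlated at -0.023, 0.0050 and -0.033 in their deviations. The labels name no pairing, and so few values cannot show whether the numbers carry one.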

Additional observations from a re-analysis of the deposited data

How the results depend on the processing

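With all libraries, the count of 3 genes (1 higher, 2 lower) was 32 (19 and 13) with no low-count filter, 149 (82 and 67) with DESeq2, 155 (84 and 71) with DESeq2 on the filtered genes, and 3 (0 and 3) with library totals alone, which moved the median by -0.35. It was 0 on the day 7 and day 14 libraries alone, also without day 14 replicate 3, with 1323 and 1842 genes at an unadjusted p under 0.05. Leaving out 1 library each gave 0 to 56 (0 to 46 higher, 0 to 10 lower). With the replicate number as a block it was 1 (0 higher and 1 lower), and 49 without day 14 replicate 3. The 1 list gene that passed became 8 with no filter, 24 with DESeq2, 26 with DESeq2 on the filtered genes, 0 in both fits on 2 groups, and 0 to 25 leaving out 1 library.

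Without day 14 replicate 3, the 56 genes (46 higher, 10 lower) became 9 (3 and 6) with library totals alone, 220 (175 and 45) with no filter, 389 (242 and 147) with DESeq2 and 108 (102 and 6) with limma-voom. DESeq2 called all 56, limma-voom 50 and the unfiltered fit 54. Leaving out a second library gave 12 to 119 (8 to 113 higher, 2 to 13 lower): 12 without day 7 replicate 1, 19 without day 7 replicate 3, 119 without day 14 replicate 1 and 30 without day 14 replicate 2, of which 12, 18, 37 and 13 were among the 56. The fits leaving out a second library, the fit leaving out both replicate 3 and the mitochondrial genes, and the filtered DESeq2 fit were chosen after seeing the data. The causes were not tested.

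Some uncalled genes changed sign. Col1a1 was 0.0911 with the replicate block and -0.83 to 0.39 leaving out 1 library. Col3a1 was -0.0465 with library totals, -0.11 on 2 groups without day 14 replicate 3, -0.0989 to 0.59 leaving out 1 library, and -0.74 to 0.34 leaving out a second library beside day 14 replicate 3. Vim was -0.18 with library totals, -0.37 on 2 groups without day 14 replicate 3 and -0.36 to 0.42 leaving out 1 library. There Fn1 was -0.299 to 0.13 and Pltp -1.03 to 0.057. Among summed marker levels, day 14 minus day 7 changed sign leaving out 1 library for matrix (-40.4 to 251 CPM), T cell (-6.25 to 1.37), B cell (-10.8 to 4.47), neutrophil (-3.24 to 0.88) and adrenal, fat and urothelium genes (-3.78 to 7.36). Where 1 library of a group was left, it was assumed to vary like the other groups.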
